A study of Mus musculus with 6 samples.

Results

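The 9 genes described here encode receptors, neuropeptides and signaling proteins of striatal projection neurons. They were taken by name from tables of 22651 genes, and all 9 were found: the dopamine receptor genes Drd1a (the tables' name for Drd1) and Drd2, the adenosine receptor gene Adora2a, the orphan receptor gene Gpr6, the neuropeptide precursor genes Penk, Pdyn and Tac1, and the signaling genes Ppp1r1b and Pde10a. Of these, 3 are commonly assigned to the direct pathway (Drd1a, Pdyn and Tac1), 4 to the indirect pathway (Drd2, Adora2a, Penk and Gpr6) and 2 are shared by both (Ppp1r1b and Pde10a).

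Projection neurons make up most neurons of the striatum. Direct pathway neurons carry the dopamine receptor encoded by Drd1a, which raises cyclic AMP, and release dynorphin and tachykinins, whereas indirect pathway neurons carry the dopamine receptor encoded by Drd2, which lowers cyclic AMP, and release enkephalin. Both kinds arise in the lateral ganglionic eminence of the ventral telencephalon, where Emx1-Cre is largely inactive, and are still maturing at birth.

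The mRNA-sequencing compared telencephalon tissue of 3 WT and 3 TSC1 mice at postnatal day 0. The TSC1 mice had the genotype TSC1 flox/flox;Emx1-cre/+, in which Cre made from the Emx1 locus in the embryonic dorsal cortex removes part of Tsc1. The WT mice were their TSC1 flox/flox;Emx1 +/+ littermates, so both groups carried the floxed alleles and the groups differed in the Cre allele. Total expected counts, RSEM's estimates of the reads that came from genes, ranged from 14119365 to 17772865 per mouse, and 3 counts corresponded to 0.169 to 0.213 CPM (counts scaled to the library total).

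A few features of the libraries bear on every value below. Tsc1 itself was measured at 50.23, 31.99 and 28.42 TPM (transcript levels scaled for length and library size) in the WT mice, always listed here in the order of replicates 1, 2 and 3, and at 27.09, 21.73 and 22.42 TPM in the TSC1 mice, so the groups did not overlap. Its log2 fold change was -0.66 (SE 0.175, edgeR adjusted p = 0.09998, DESeq2 adjusted p = 0.00321), and most of the transcript lies outside the deleted part. Without WT replicate 1, the highest mouse for Tsc1, the value was -0.40 (SE 0.0985, edgeR adjusted p = 0.0659). Replicate 3 was a male pup in both groups by Xist (0.48 and 0.66 TPM, against 442 to 510 TPM in the other mice) and by Ddx3y on the Y chromosome (64.25 and 61.97 TPM, against 0 in the others). On the first principal component of all tested genes (47.7% of the variance), TSC1 replicate 3 lay at -3.95, nearer to WT replicate 1 at -7.43 than to the other TSC1 mice at 26.5 and 30.3. Results are therefore also given without TSC1 replicate 3. That mouse was chosen from these data as the TSC1 mouse nearest to WT. Larger differences without it follow in part from that choice and are no separate evidence.

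The start regions of the genes that separate the pathways are shown to let their letters be compared with the expression values. RefSeq entries (GRCm38.p6, the assembly of mm10) were matched for 6 of the 9 genes. The bases listed lie upstream of the annotated starts in RefSeq and GENCODE, on the strand of the gene. Capitals mark TGACG or its reverse complement CGTCA, which is part of the cyclic AMP response element and was searched on both strands in the 250 bases before each RefSeq start. The regions lie at chr9:49340153-49340402 (plus strand, Drd2), chr13:54055706-54055908 (minus strand, Drd1a), chr10:41072291-41072540 (minus strand, Gpr6), chr2:129699939-129700188 (minus strand, Pdyn) and chr6:7554811-7554878 (plus strand, Tac1).
Drd2: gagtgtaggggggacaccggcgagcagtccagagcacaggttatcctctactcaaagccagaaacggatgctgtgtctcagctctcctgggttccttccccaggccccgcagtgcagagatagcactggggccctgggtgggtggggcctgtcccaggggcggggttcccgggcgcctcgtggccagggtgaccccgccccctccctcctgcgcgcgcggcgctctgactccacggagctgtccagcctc
Drd1a: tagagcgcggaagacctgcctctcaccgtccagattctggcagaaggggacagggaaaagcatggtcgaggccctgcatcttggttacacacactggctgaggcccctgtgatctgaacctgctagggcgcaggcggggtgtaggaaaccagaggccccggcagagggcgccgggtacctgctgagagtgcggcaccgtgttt
Gpr6: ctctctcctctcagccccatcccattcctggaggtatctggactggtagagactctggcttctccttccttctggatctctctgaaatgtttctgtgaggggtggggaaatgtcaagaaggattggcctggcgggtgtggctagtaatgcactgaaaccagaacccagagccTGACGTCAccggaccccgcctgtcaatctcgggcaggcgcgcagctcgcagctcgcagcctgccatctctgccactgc
Pdyn: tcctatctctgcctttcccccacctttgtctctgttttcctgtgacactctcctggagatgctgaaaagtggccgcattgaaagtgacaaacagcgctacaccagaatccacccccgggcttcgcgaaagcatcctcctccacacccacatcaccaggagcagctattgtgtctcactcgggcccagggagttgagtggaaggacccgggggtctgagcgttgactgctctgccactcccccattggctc
Tac1: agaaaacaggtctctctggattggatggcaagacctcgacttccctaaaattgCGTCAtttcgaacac

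The motif was found for 2 of the 6 genes, Gpr6 and Tac1, and in 2 of the 9 start regions that the 6 genes have in the table. In Gpr6 it started 78 bases before the RefSeq start as the full palindrome TGACGTCA, in which both orientations of the shorter motif overlap. In Tac1 it occurred at 197 bases before the start, as shown, and again at 43 bases, within the gene as GENCODE draws it. Of the 32851 start regions of the same length in the table, 17.8% held TGACG on either strand and 1.55% held TGACGTCA. No match was found for Drd1a, Drd2, Pdyn or Pde10a in these windows. The presence of the letters is a description and not a bound site.

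All 9 genes had lower mean TPM in TSC1 than in WT, and the size of the difference varied widely among them. Drd2, Tac1, Gpr6, Penk and Adora2a stood in TSC1 at 22.6%, 30.1%, 33.0%, 34.5% and 34.6% of their WT means. Pdyn stood at 40.7%, Ppp1r1b at 46.5%, Pde10a at 85.4% and Drd1a at 87.1%. In 8 of the 9 genes, all but Drd1a, every TSC1 mouse lay below every WT mouse, as was the case for 10.3% of the 13969 genes tested. The median log2 fold change was -1.53 over the 9 genes and -0.0027 over all genes tested. In bulk tissue, fewer cells of a type and less RNA per cell cannot be told apart.

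None of these differences passed the test across all genes. In the quasi-likelihood test of edgeR, with p-values adjusted by Benjamini-Hochberg over 13969 genes, 0 of the 9 were called at 0.05, where 0.659% of all genes were called lower in TSC1 and 1.52% in either direction. The edgeR adjusted p-values ranged from 0.0517 for Gpr6 to 0.490 for Drd1a. At an unadjusted p below 0.05, 8 of the 9 were lower in TSC1, against 8.93% of all genes. DESeq2 called 2, Drd2 and Ppp1r1b (1.66% of all genes were called lower), and gave no adjusted p for Gpr6, and a rerun of the T value and log2-median-ratio method called 7, all but Drd1a and Pde10a (3.63% of all genes). When TSC1 replicate 3 was left out, edgeR called 6 genes lower, namely Drd2, Adora2a, Penk, Pdyn, Tac1 and Ppp1r1b, against 3.06% of all genes. With TSC1 replicate 1 or 2 left out instead, edgeR called 0 of the 9. Within the female mice, 2 of each group, 5 were called lower (Drd2, Adora2a, Penk, Tac1 and Ppp1r1b), against 2.04% of all genes, and with 1 male in each group no test among the males was possible.

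**Figure D1:**
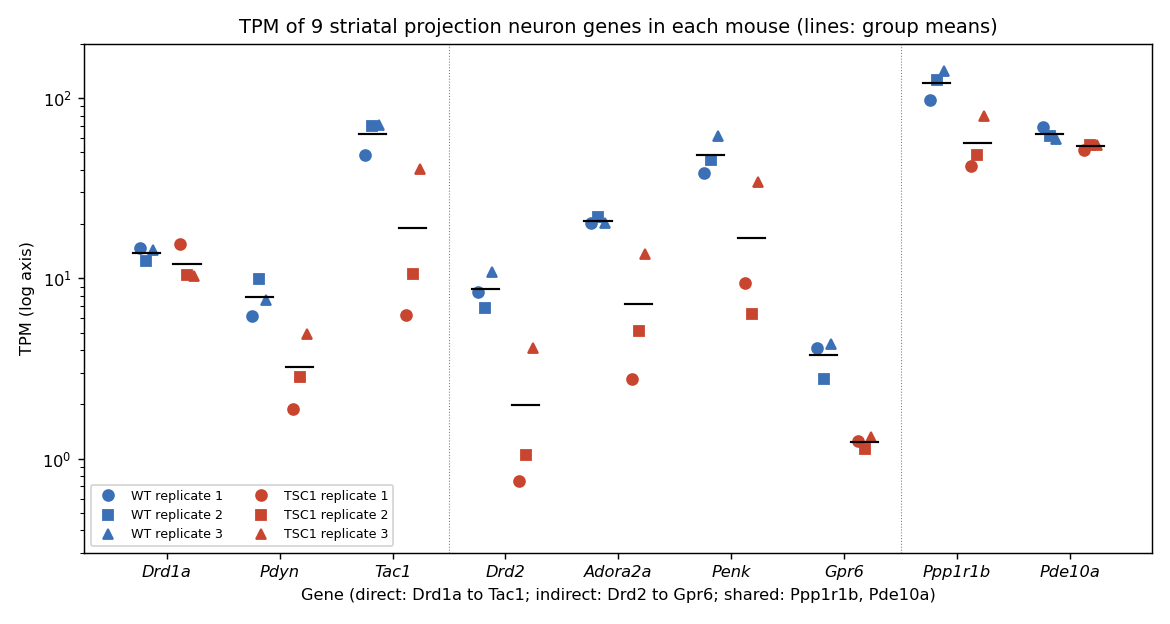
TPM on a log axis of each gene in each mouse, blue for WT and red for TSC1, with a marker shape for each replicate number and black lines for group means. TSC1 replicate 3 is the highest TSC1 mouse for every gene but Drd1a, for which the groups overlap.

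Among the receptors, Drd2 had the largest difference. Drd2 lies on chromosome 9 (mm10, 49340627 to 49408177, plus strand) and measured 8.39, 6.87 and 10.91 TPM in WT, against 0.75, 1.05 and 4.12 TPM in TSC1. TSC1 replicates 1 and 2 rested on 6 and 8 expected counts and TSC1 replicate 3 on 36, against 68 to 87 in WT. TSC1 replicate 3 was the TSC1 mouse nearest to WT, and the groups did not overlap. The edgeR log2 fold change of Drd2 was -2.13 (SE 0.489, 95% interval -3.23 to -1.02, adjusted p = 0.0683), and without TSC1 replicate 3 it was -3.30 (SE 0.367, edgeR adjusted p = 0.00147).

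Adora2a encodes the adenosine receptor that acts opposite to the Drd2 product on cyclic AMP in indirect pathway neurons. It lies on chromosome 10 (75316877 to 75334784, plus strand). Its level was 20.18, 21.78 and 20.34 TPM in the WT mice, with the highest WT mouse 1.08 times the lowest, against 2.77, 5.11 and 13.70 TPM in TSC1. The highest TSC1 mouse was 4.95 times the lowest, but remained below all WT mice. Its log2 fold change was -1.53 (SE 0.431, edgeR adjusted p = 0.109) with all mice and -2.44 (SE 0.228, edgeR adjusted p = 0.000613) without TSC1 replicate 3.

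Gpr6, an orphan receptor gene of indirect pathway neurons whose product raises cyclic AMP, had the lowest mean TPM of the 9 genes in both groups, although Drd2 was lower in TSC1 replicates 1 and 2. It is on chromosome 10 (41069977 to 41072285, minus strand). WT replicates had 4.13, 2.76 and 4.33 TPM, from 19 to 25 expected counts, and TSC1 replicates had 1.25, 1.13 and 1.32 TPM, from 6 to 8 expected counts. Unlike in the other indirect pathway genes, the 3 TSC1 mice were close to each other, with the highest 1.17 times the lowest. The log2 fold change of Gpr6 was -1.60 (SE 0.330, edgeR adjusted p = 0.0517), and without TSC1 replicate 3 it was -1.66 (SE 0.4196, edgeR adjusted p = 0.0506).

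Drd1a, the receptor gene of direct pathway neurons, which neurons of the deep cortical layers also express, stood apart from the other receptors. It lies on chromosome 13 (54051183 to 54055705, minus strand) and was counted at 14.71, 12.46 and 14.31 TPM in WT and at 15.49, 10.38 and 10.27 TPM in TSC1. TSC1 replicate 1, the lowest mouse for Drd2, Adora2a, Tac1, Pdyn, Ppp1r1b and Pde10a, was the highest of all 6 mice for Drd1a, and the groups overlapped. The edgeR log2 fold change was -0.23 (SE 0.160, adjusted p = 0.490). Its 95% interval ran from -0.59 to 0.13, so that a small decrease and no difference are both within it. The value depended on single mice: it was -0.43 (SE 0.129, edgeR adjusted p = 0.254, unadjusted p = 0.0112) without TSC1 replicate 1, the mouse through which the groups overlap, -0.14 (SE 0.176) without TSC1 replicate 2 and -0.13 (SE 0.167, edgeR adjusted p = 0.669) without TSC1 replicate 3.

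**Figure D2:**
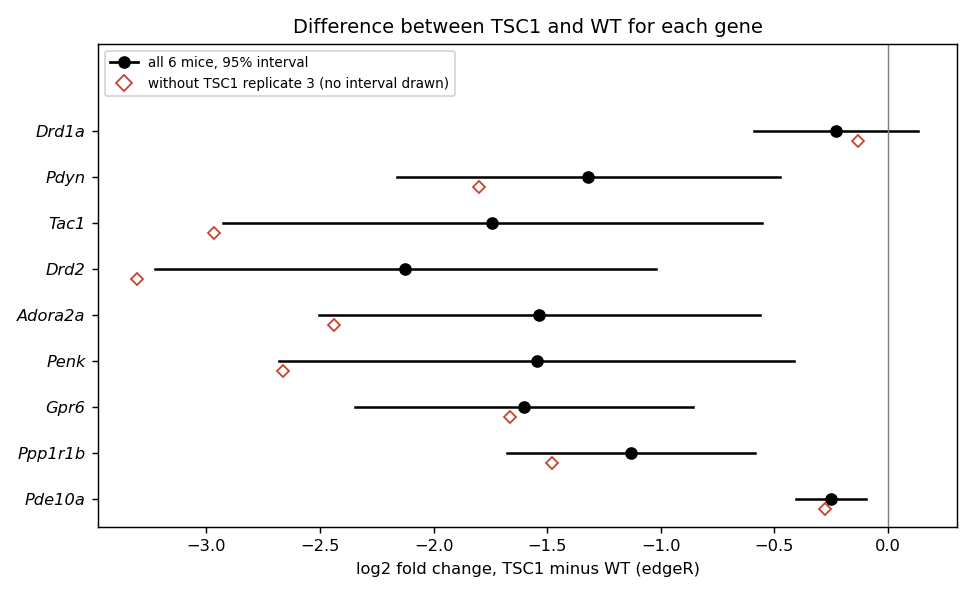
Log2 fold change of TSC1 against WT for each gene from edgeR, with black points and lines for the estimate and 95% interval from all 6 mice and open red diamonds for the estimate without TSC1 replicate 3. The interval of Drd1a (-0.59 to 0.13) includes 0, those of the other genes do not before adjustment, and leaving out the mouse moves Drd2 from -2.13 to -3.30 but Gpr6 only from -1.60 to -1.66.

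The neuropeptide genes were lower in TSC1 in both pathways. Penk, the enkephalin precursor of indirect pathway neurons, lies on chromosome 4 (4133531 to 4138819, minus strand) and had 38.57, 45.13 and 61.81 TPM in WT and 9.44, 6.33 and 34.37 TPM in TSC1. TSC1 replicate 3 reached 70.9% of the WT mean, whereas the other TSC1 mice were at 19.5% and 13.1%. The log2 fold change of Penk was -1.55 (SE 0.503, edgeR adjusted p = 0.155), and without TSC1 replicate 3 it was -2.66 (SE 0.263, edgeR adjusted p = 0.000826).

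Tac1, the precursor of substance P in direct pathway neurons, lies on chromosome 6 (7554879 to 7565834, plus strand). It had 48.48, 70.40 and 71.44 TPM in WT and 6.26, 10.58 and 40.51 TPM in TSC1. Its TSC1 mice were the most spread of all 9 genes, with the highest 6.47 times the lowest, and still lay below the WT mice. The log2 fold change of Tac1 was -1.74 (SE 0.526, 95% interval -2.93 to -0.55, edgeR adjusted p = 0.130) and was -2.97 (SE 0.276, edgeR adjusted p = 0.000613) without TSC1 replicate 3.

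Pdyn, the dynorphin precursor of direct pathway neurons, was expressed at a lower level than the other neuropeptide genes. It lies on chromosome 2 (129686565 to 129699844, minus strand), and its TPM was 6.18, 9.97 and 7.55 in WT and 1.88, 2.83 and 4.94 in TSC1. These values rested on 25 to 46 expected counts in WT and 7 to 20 in TSC1, and again TSC1 replicate 3 was the highest of its group. The log2 fold change of Pdyn was -1.32 (SE 0.373, edgeR adjusted p = 0.112), and -1.80 (SE 0.398, edgeR adjusted p = 0.0323) without TSC1 replicate 3.

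The shared signaling genes differed from each other. Ppp1r1b encodes the dopamine- and cAMP-regulated inhibitor of protein phosphatase 1 and lies on chromosome 11 (98348404 to 98357796, plus strand). It had the highest mean of the 9 genes in both groups, at 97.64, 126.60 and 141.85 TPM in WT and 42.17, 48.23 and 79.94 TPM in TSC1, without overlap between the groups, but in TSC1 replicates 1 and 2 it lay below Pde10a (51.88 and 55.14 TPM). Its log2 fold change was -1.13 (SE 0.241, edgeR adjusted p = 0.0570), and it was called without TSC1 replicate 3 (-1.48, edgeR adjusted p = 0.00192) and without WT replicate 1. An antisense gene, 1700003D09Rik, shares exon sequence with Ppp1r1b, and in libraries that do not mark strand their reads cannot be told apart. It was assigned 0 to 15 expected counts per mouse, against 366 to 1351 for Ppp1r1b. An antisense transcript also overlaps Penk and was not analysed here.

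Pde10a encodes the phosphodiesterase that degrades cyclic nucleotides in both kinds of projection neuron and lies on chromosome 17 (8525372 to 8986648, plus strand). It was measured at 68.86, 61.81 and 59.23 TPM in WT and 51.88, 55.14 and 55.23 TPM in TSC1. The groups did not overlap, though the lowest WT mouse (59.23 TPM) was close to the highest TSC1 mouse (55.23 TPM). The log2 fold change of Pde10a was -0.25 (SE 0.0686, 95% interval -0.41 to -0.10, edgeR adjusted p = 0.105), and it was -0.28 without TSC1 replicate 3. The intervals of Pde10a and Ppp1r1b did not overlap, but the difference between these genes was not itself tested.

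The order of the levels also differed between the groups. In WT, Ppp1r1b was highest with a mean of 122.03 ± 22.5 TPM (SD, n = 3), followed by Tac1 (63.4 ± 13.0), Pde10a (63.3 ± 4.98) and Penk (48.5 ± 11.98), whose ranges overlapped from one to the next. Adora2a (20.8 ± 0.881 TPM), Drd1a (13.8 ± 1.2) and Drd2 (8.72 ± 2.04) came next, each with a range apart from its neighbor above. The ranges of Drd2 and Pdyn (7.90 ± 1.92 TPM) overlapped, and Gpr6 (3.74 ± 0.855) lay below all others. In TSC1, the mean of Ppp1r1b was 56.8 ± 20.3 TPM (SD, n = 3) and its range overlapped that of Pde10a (54.1 ± 1.91). From Tac1 (19.1 ± 18.7 TPM) over Penk (16.7 ± 15.4), Drd1a (12.05 ± 2.98), Adora2a (7.19 ± 5.76), Pdyn (3.22 ± 1.57) and Drd2 (1.97 ± 1.87) down to Gpr6 (1.23 ± 0.0961), each range overlapped the next. Drd1a thus lay below Adora2a by mean in WT and above it in TSC1, where their ranges overlapped.

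To contrast the pathways within each mouse, ratios of TPM between their genes were computed, which do not depend on the total of a library. The ratio of Drd2 to Drd1a was 0.570, 0.551 and 0.762 in WT, against 0.0484, 0.101 and 0.401 in TSC1. All TSC1 mice lay below all WT mice. On the log2 scale with 0.1 TPM added to each gene, the ratio averaged -0.68 in WT (SD 0.254, n = 3) and -2.89 in TSC1 (SD 1.47, n = 3), a difference of -2.21 (two-sided exact permutation test, p = 0.1, the smallest that 3 mice against 3 allow, and 0.2 when adjusted over the 2 ratios tested).

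The neuropeptide genes gave another picture. The ratio of Penk to Tac1 was 0.796, 0.641 and 0.865 in WT and 1.51, 0.598 and 0.848 in TSC1, so the TSC1 mice spread to both sides of the WT mice. The log2 ratio averaged -0.39 in WT (SD 0.223, n = 3) and -0.13 in TSC1 (SD 0.665, n = 3), with a difference of 0.26 (two-sided exact permutation test, p = 0.7, adjusted p = 0.7). That difference was -0.09 without TSC1 replicate 1. Tac1 and Drd1a, both of the direct pathway, had a ratio of 3.30, 5.65 and 4.99 in WT and of 0.404, 1.02 and 3.94 in TSC1, so that TSC1 replicate 3 fell within the WT range and the other TSC1 mice below it.

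**Figure D3:**
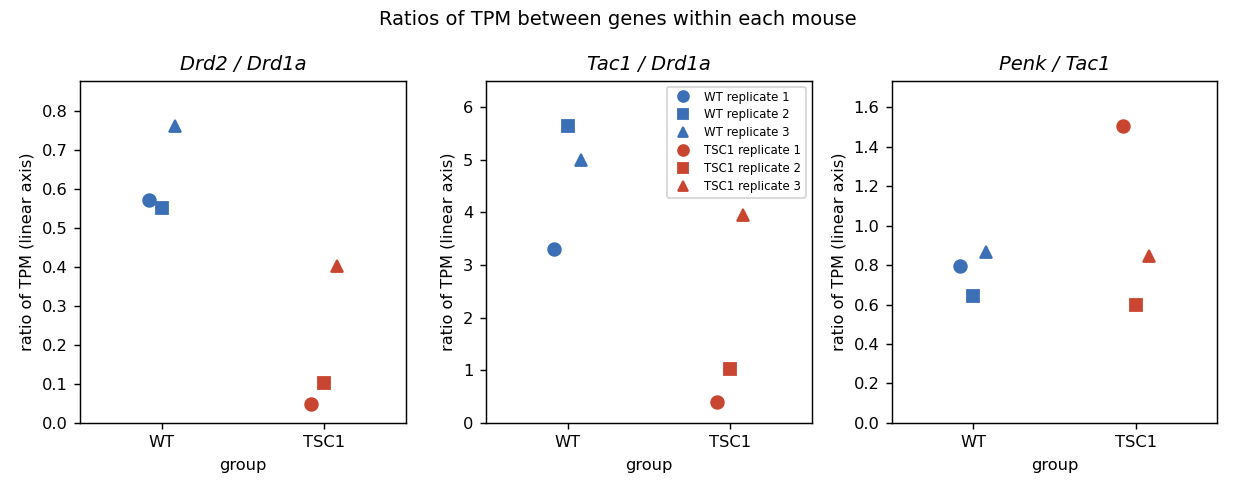
Ratio of TPM between the named genes in each mouse, on linear axes that start at 0, blue for WT and red for TSC1. Drd2 relative to Drd1a was 0.551 to 0.762 in WT and 0.0484 to 0.401 in TSC1, and Penk relative to Tac1 overlapped between the groups.

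Averages over the members of each pathway were closer to each other than the receptor ratio. The mean log2(TPM + 0.1) of the 3 direct pathway members was 4.05, 4.37 and 4.32 in WT and 2.54, 2.79 and 3.68 in TSC1. For the 4 indirect pathway members it was 3.70, 3.57 and 3.98 in WT and 1.24, 1.39 and 2.87 in TSC1. The indirect minus direct difference lay between -0.81 and -0.34 in WT and between -1.39 and -0.81 in TSC1, and WT replicate 2 (-0.807) and TSC1 replicate 3 (-0.815) nearly met. The direct average includes Drd1a, whose edgeR log2 fold change was -0.23. The other direct pathway members, Pdyn and Tac1, stood at -1.32 and -1.74, against -2.13 to -1.53 for the indirect pathway members. Without a test, Drd1a also varied least like the other members: across the 6 mice its log2 CPM correlated with the mean of the other members at r = 0.247, against r of 0.859 to 0.983 for each of the others. These r values describe 6 mice that fall into 2 groups and share the libraries of the members.

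Among the wider lists of striatal genes, some members were lower in TSC1. Of 25 other genes of striatal projection neurons, 23 were tested and 19 had a lower estimate in TSC1. The list median log2 fold change was -0.44 against -0.0027 over all genes. EdgeR called 4, all lower (0.659% of all genes were called lower), and DESeq2 called 8, all lower (1.66% of all genes). At an unadjusted p below 0.05, 15 were lower and 0 were higher, against 8.93% of all genes lower. The genes called by edgeR were Bcl11b (-0.56, SE 0.112), Meis2 (-0.45, SE 0.0889), Foxp2 (-1.001, SE 0.200) and Gad1 (-0.83, SE 0.166), each with an edgeR adjusted p of 0.0479. Bcl11b, Meis2 and Foxp2 encode transcription factors of striatal neurons that are also used in other forebrain neurons, and Gad1 encodes a GABA-synthesizing enzyme of GABAergic neurons in general. Bcl11b, for example, decreased from 103.87, 111.00 and 118.93 TPM in WT to 70.39, 71.17 and 88.69 TPM in TSC1. The edgeR count rose to 12 of the 23, all lower, when TSC1 replicate 3 was left out, against 3.06% of all genes.

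A pair of striatal genes, picked here after their values were seen, shows the spread within that list. Rxrg, a retinoid receptor gene, had 30.36, 33.98 and 33.39 TPM in WT and 2.5, 6.39 and 17.26 TPM in TSC1 (log2 fold change -1.91, SE 0.479, edgeR adjusted p = 0.0857). In contrast, Ptpn5, a striatum-enriched phosphatase gene, overlapped between the groups at 117 to 149 TPM in WT and 119 to 141 TPM in TSC1.

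Other genes assigned to a single pathway were mixed. Of 8 other direct pathway genes, 7 were tested. EdgeR called 0 and DESeq2 called 1 (Slc35d3, lower), against 1.66% of all genes called lower by DESeq2. At an unadjusted p below 0.05, 3 were lower, against 8.93% of all genes, and the list median was -0.11. Isl1, a transcription factor gene of developing direct pathway neurons and of cholinergic neurons, had 13.84, 14.75 and 28.45 TPM in WT and 0.75, 2.05 and 11.40 TPM in TSC1 (log2 fold change -1.995, SE 0.687, edgeR adjusted p = 0.175). Ebf1, another transcription factor gene of direct pathway neurons, had 13.50, 17.32 and 21.83 TPM in WT and 2.03, 2.49 and 11.07 TPM in TSC1 (log2 fold change -1.75, SE 0.520, edgeR adjusted p = 0.124). Isl1, Ebf1 and Slc35d3 were called lower without TSC1 replicate 3, against 3.06% of all genes. The estimates of Isl1 and Ebf1 lay within the range of the 4 indirect pathway members (-2.13 to -1.53), while Chrm4, a muscarinic receptor gene of direct pathway neurons singled out after its values were seen, overlapped at 1.80 to 2.73 TPM in WT and 1.78 to 2.30 TPM in TSC1.

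Among 8 other indirect pathway genes, all of which were tested, edgeR called 1 (0.659% of all genes were called lower), with a list median of -0.36. Sp9, a transcription factor gene needed for indirect pathway neurons, decreased from 20.88, 17.44 and 19.58 TPM in WT to 9.62, 8.77 and 12.01 TPM in TSC1 (log2 fold change -0.95, SE 0.144, edgeR adjusted p = 0.0214). Six3, another transcription factor gene, was called lower beside Sp9 without TSC1 replicate 3.

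The genes through which dopamine acts on cyclic AMP were mostly close to their WT level. Of 25 genes of that cascade, 21 were tested and 0 were called by edgeR. DESeq2 called 3, Gng7, Arpp21 and Pde7b, all lower, against 1.66% of all genes. At an unadjusted p below 0.05, 6 were lower and 0 were higher, against 8.93% of all genes lower, and the list median was -0.13. The largest estimates were those of Pde7b, another phosphodiesterase gene (-0.72, SE 0.184, edgeR adjusted p = 0.0906), and Gng7, a G protein subunit gene of striatal neurons (-0.44, SE 0.102, edgeR adjusted p = 0.0683). Gnal, Adcy5, Arpp21, Pde1b, Gng7 and Rgs9 stand in this list and in that of striatal projection neurons. Leaving out TSC1 replicate 3, Gng7, Pde7b and Rgs9 were called lower, against 3.06% of all genes.

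Receptors, related peptides and processing enzymes of the enkephalin, dynorphin, tachykinin and adenosine systems formed a list of 20 genes, of which 16 were tested and 0 were called by edgeR or DESeq2. At an unadjusted p below 0.05, 3 were higher and 2 lower, against 8.93% of all genes lower, and the median was -0.089. Pnoc, the precursor of the opioid-related peptide nociceptin, had 7.95, 8.31 and 11.44 TPM in WT and 4.81, 4.36 and 6.90 TPM in TSC1 (log2 fold change -0.80, SE 0.234, edgeR adjusted p = 0.1196). Adora2b, another adenosine receptor gene, had a log2 fold change of -0.58 (SE 0.323, edgeR adjusted p = 0.380). The opioid receptor genes Oprm1, Oprd1 and Oprk1 were low throughout, at 0.59 to 1.89 TPM over all mice. Pnoc alone was called lower without TSC1 replicate 3.

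Markers of other cells and regions also differed between these mice. The summed TPM of 7 choroid plexus markers was 1713, 1179 and 2484 in WT and 33.0, 111 and 871 in TSC1, which are 1.84%, 6.20% and 48.6% of the WT mean. Ttr made up most of that sum, and the other 6 markers together stood at 16.2%, 15.3% and 49.1% of their WT mean in the TSC1 mice. TSC1 replicate 3 was thus the highest TSC1 mouse here as it was for most of the 9 genes. All 7 had an unadjusted p below 0.05 and a lower estimate, as did 8.93% of all genes, and the median was -1.89 on the log2 scale. With all mice 0 were called by edgeR and 4 by DESeq2 (Folr1, Kcne2, Aqp1 and Otx2), where DESeq2 called 1.66% of all genes lower. Without TSC1 replicate 3, edgeR called 6, against 3.06% of all genes. None of the 7 was at 0 in all mice. Ttr, the most abundant of them, had 1652, 1142 and 2411 TPM in WT and 23.9, 102 and 843 TPM in TSC1 (log2 fold change -2.44, SE 0.957, edgeR adjusted p = 0.220), and Kcne2 had a log2 fold change of -2.35 (SE 0.576, edgeR adjusted p = 0.0796). The choroid plexus grows in the brain ventricles and does not belong to the striatum, and its part in the differences of the 9 genes was not tested.

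Markers of the medial ganglionic eminence and of interneurons, which arise beside the striatal neurons, summed to 960 to 1081 TPM in WT and 525 to 816 TPM in TSC1. The neuropeptide genes Sst and Npy together made up most of that sum in every mouse, and edgeR called neither (adjusted p = 0.0960 and 0.107). Of 13 genes, 12 were tested, and edgeR called 3, all lower, against 0.659% of all genes. These were Lhx6 (-0.54, SE 0.0798, edgeR adjusted p = 0.0203), Gad2 (-1.03, SE 0.178, edgeR adjusted p = 0.0318) and Slc32a1 (-1.19, SE 0.238, edgeR adjusted p = 0.0479). Gad2 and Slc32a1, needed for GABA synthesis and vesicle loading, are also used by striatal projection neurons. The median over these genes was -0.81. Chat, the defining enzyme of cholinergic neurons, reached at most 0.20 TPM. Leaving out TSC1 replicate 3, 9 were called, all lower, against 3.06% of all genes.

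Markers of cortical projection neurons, the cells in which Emx1-Cre is active, were not lower in TSC1. Their summed TPM was 2295, 2062 and 1955 in WT and 2624, 2629 and 2125 in TSC1, so the groups overlapped through TSC1 replicate 3. Of 14 genes tested, 11 had a higher estimate. EdgeR called 0 and DESeq2 called 2, both higher, as were 342 of all 18018 genes in DESeq2. At an unadjusted p below 0.05, 3 were higher, where 2510 of all 13969 genes passed in either direction, 1247 of them lower. The list median was 0.094. Bhlhe22, a transcription factor gene of cortical neurons, had a log2 fold change of 0.47 (SE 0.128, edgeR adjusted p = 0.105). Without TSC1 replicate 3, 3 were called, all higher, as were 368 of all 14079 genes. Whether the share of striatal, choroid plexus and cortical tissue differed between the dissected samples was not tested.

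**Figure D4:**
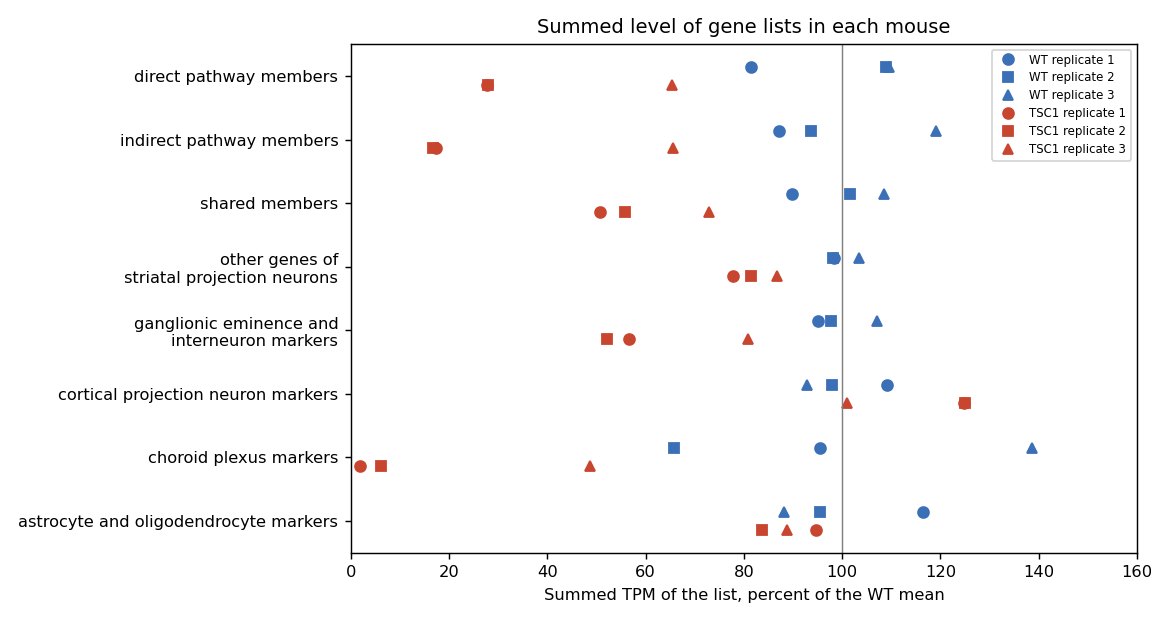
Summed TPM of each gene list in each mouse as a percentage of the WT mean of that list, blue for WT and red for TSC1, with a marker shape for each replicate number. TSC1 replicates 1 and 2 sit at 16.7% to 27.9% for the direct and indirect pathway members and at 1.84% and 6.20% for choroid plexus markers (mostly Ttr). TSC1 replicate 3 lies between them and WT, and cortical markers sit at 101% to 124.9% in TSC1. Tac1 makes up most of the direct pathway sum in WT, and Drd1a alone stood at 112.0% and 75.1% of its WT mean in TSC1 replicates 1 and 2.

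The genes whose pattern was most like the 9 genes were found by correlation of log2 CPM over the 6 mice with the mean standardized level of the members. The 8 most similar were Glra2, Cxcl14, Gprc5c, Gpr83, Tgfa, Tmem59, Synpr and Id4, with r between 0.994 and 0.999. Their differences were smaller than those of most members: Glra2, a glycine receptor subunit gene, had 98.38 to 102.79 TPM in WT and 72.70 to 83.03 TPM in TSC1 (log2 fold change -0.42, SE 0.0802, edgeR adjusted p = 0.0433). Synpr, a synaptic vesicle protein gene, had 56.82 to 65.53 TPM in WT and 25.05 to 42.36 TPM in TSC1 (log2 fold change -1.01, SE 0.185, edgeR adjusted p = 0.0402). Tgfa, a growth factor gene, had 58.43 to 60.22 TPM in WT and 28.18 to 39.37 TPM in TSC1 (log2 fold change -0.92, SE 0.132, edgeR adjusted p = 0.0193). In each of the 8, TSC1 replicate 3 was the TSC1 mouse nearest to WT, which follows from how they were picked. The 8 were picked as the highest of 13969 genes over 6 mice, and r was not tested. Their differences between the groups are therefore no separate evidence.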

How the data were processed

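mRNA-sequencing of telencephalon from 3 WT and 3 TSC1 mice was analysed from 1 RSEM gene table per mouse. Per the methods and the submitters' processing notes, the authors mapped trimmed reads with MapSplice2 (mm10) and estimated gene levels with RSEM 1.2.12. The deposited expected counts are estimated reads per gene, not normalized. The deposited TPM and FPKM were scaled by RSEM for effective length and library. The authors' library kit does not mark strand. Nothing says how tissue was dissected beyond the telencephalon label.

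Expected counts were rounded and tested with edgeR 4.0.16 in R 4.3.3 (TMM, filterByExpr, quasi-likelihood test, Benjamini-Hochberg adjustment over all 13969 genes, threshold 0.05). All 9 members passed the filter. SEs and 95% intervals come from the same fit. DESeq2 1.42.0, limma 3.58.1 and the T value and log2-median-ratio method (null from all 20 sample assignments, 13844 genes, p not adjusted over genes) were alternatives. Others were different normalizations, filters, effective lengths as offsets, a replicate block and leaving out mice. Ratios were compared with exact permutation tests. Self-tests on data with known changes were run first. Pairs within a group were distinct libraries (chi-square per degree of freedom 5.68 to 17.4).

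The members and lists were chosen with earlier results of these data known. Named were the 9 members, Tsc1, per list up to 4 called genes or else the 2 with the largest change, and the 8 most similar genes. Any other named gene was chosen after its values were seen, and the text gives it for its role or as a count of 5 or fewer. In these lists 7 genes are not analysed here. Some listed genes that the rule names are not reported here by name. Positions are from GENCODE M21 (GRCm38), counted from 1.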

Additional observations from a re-analysis of the deposited data

How the results depend on the processing

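All 9 members kept a lower estimate in TSC1 under every alternative run. The number of members past the adjusted threshold did not hold. It was 0 with all mice in edgeR with TMM, RLE or upper-quartile normalization and with effective lengths as offsets. It was also 0 with at least 10 counts in every sample, which leaves Drd2, Gpr6 and Pdyn untested. DESeq2 called 2, and limma called 3 on log2(TPM + 1) and 2 on log2(TPM + 0.1). EdgeR called 3 with no filter on low counts and 5 without both libraries numbered 3. The T value and log2-median-ratio method called 7, at an overall p below 0.05 that is not adjusted over genes. With each replicate left out in turn the edgeR number ranged from 0 to 6: 6 without TSC1 replicate 3, 1 (Ppp1r1b) without WT replicate 1 and 0 otherwise. Drd1a and Pde10a were called in none of these. Over all genes, 212 were called by edgeR (92 lower, of 13969 tested) and 346 with no filter (171 lower, of 18026). DESeq2 called 641 (299 lower, of 18018 with a p-value, which include genes without an adjusted p, such as Gpr6). Of 13844 genes, limma called 267 on log2(TPM + 1) (135 lower) and 246 on log2(TPM + 0.1) (120 lower), and the T value and log2-median-ratio method 1008 by its unadjusted p (502 lower). Without both libraries numbered 3 it was 434 (285 lower, of 14000). With each replicate left out it was 29 to 799 (447, 29 and 35 without WT replicates 1, 2 and 3, and 37, 37 and 799 without TSC1 replicates 1, 2 and 3). The cause was not tested, except that fewer mice enter the fits that leave some out.

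With the replicate number as a block, 551 genes (278 lower, of 13969 tested) and 6 members were called. Deviations of same-numbered mice from their group means correlated at r = 0.267, -0.133 and 0.318 for replicates 1, 2 and 3, which does not show that the numbers pair the mice, and WT replicate 2 correlated best with TSC1 replicate 3 (r = 0.117). With that block the differences in the log2 ratios stay at -2.21 for Drd2 to Drd1a and 0.26 for Penk to Tac1. This holds by construction, because each number has 1 mouse in each group. An exact sign-flip test over the 3 pairs gave p = 0.25 for Drd2 to Drd1a, the smallest that 3 pairs allow. For Penk to Tac1 its p was higher than that of the test without the block. The Drd2 to Drd1a difference ranged from -3.01 to -1.56 with each replicate left out, and the Penk to Tac1 difference from -0.0916 (without TSC1 replicate 1) to 0.57. Depth limits Drd2, Gpr6 and Pdyn most, with 6 to 36 expected counts in the TSC1 mice. The edgeR p-values set differences between the groups against the spread between these samples. The permutation p-values set them against other assignments of the same mice.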

Other observations

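Other marker lists gave values that belong to no comparison above. Of 7 olfactory bulb markers, 4 were tested and edgeR called 2, both lower in TSC1 (0.659% of all genes were called lower). Th, the rate-limiting enzyme of dopamine synthesis (-3.10, SE 0.563, edgeR adjusted p = 0.0391), had 4.04, 2.22 and 2.20 TPM in WT and 0.11, 0.11 and 0.70 TPM in TSC1. The other was Pcp4l1 (-1.65, SE 0.164, edgeR adjusted p = 0.00292). The summed level of the list overlapped between the groups, but Eomes, which also stands in the cortical list, made up most of it in TSC1. Eomes had 24.57, 12.76 and 14.46 TPM in WT and 29.28, 22.27 and 20.76 TPM in TSC1. Of the 4 tested markers, the other 3 had a lower estimate in TSC1. Diencephalon and midbrain markers were near absent, with a summed 6.10 to 16.4 TPM over 11 genes in all mice, 2 genes at 0 throughout, 3 tested and 0 called by edgeR or DESeq2 (0 also at an unadjusted p below 0.05). Gbx2 had a log2 fold change of -1.57 (SE 0.803, edgeR adjusted p = 0.344) and Lhx9 of 0.27 (SE 0.369, edgeR adjusted p = 0.735).

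Of 10 astrocyte and oligodendrocyte markers, edgeR called 1, Gfap, an intermediate filament gene of astrocytes, which rose from 32.01 to 47.51 TPM in WT to 73.10 to 89.36 TPM in TSC1 (log2 fold change 1.09, SE 0.1304, edgeR adjusted p = 0.00683). Microglia, endothelial and blood markers overlapped in their summed level (1559 to 4824 TPM in WT and 1242 to 1786 TPM in TSC1). Of these, 9 were tested and 0 were called by edgeR and 1 by DESeq2 (Cldn5, lower), against 1.66% of all genes called lower by DESeq2. At an unadjusted p below 0.05, 6 were lower, against 8.93% of all genes. The hemoglobin gene Hba-a1 made up most of that sum, and at 4554 TPM in WT replicate 3 against 1017 to 1688 TPM in the other mice it set that mouse apart, with a log2 fold change of -1.03 (SE 0.422, edgeR adjusted p = 0.243). Alas2, a heme synthesis gene of red blood cells, had a log2 fold change of -0.93 (SE 0.402, edgeR adjusted p = 0.268).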
